A study of Mus musculus with 16 samples.

Results

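Heme degradation, iron storage and scavenging were followed through 10 genes taken by symbol: Hp and Hpx (scavengers), Slc48a1 (heme importer), Hmox1 and Hmox2 (heme oxygenases), Blvra and Blvrb (biliverdin reductases), Fth1 and Ftl1 (ferritin subunits) and Slc40a1 (iron exporter). All 10 were found among the 20525 genes of the deposited kidney matrix, and all 10 passed the filter on low values that left 18035 genes to be tested. The RNA came from 30 µm frozen kidney sections of mice that were 8 weeks old, on a background written C56BL/6 in the labels. The 4 groups of 4 libraries were C3-/- mice given glycerol, C3-/- mice given PBS, wild-type (WT) mice given glycerol, and WT mice given PBS. Glycerol (50%, 7.5 ml/kg) was injected into a thigh muscle, which damages the muscle and releases its heme protein myoglobin to the kidney, and C3 is the central component of complement. The labels give neither the time of kidney collection nor the sex of the mice, and do not say whether each library is a separate animal, so p-values measure the spread between libraries.

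Muscle injury delivers heme proteins to the renal tubule. In plasma, haptoglobin captures free hemoglobin and hemopexin captures free heme. Inside cells, heme oxygenase opens the heme ring to give biliverdin, carbon monoxide and iron, biliverdin reductase turns biliverdin into bilirubin, and the iron is stored in ferritin or exported by ferroportin. Induction of heme oxygenase 1 in the proximal tubule is a well known protective response to heme in rodent kidney.

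Translation of ferritin and ferroportin is regulated by iron through the iron-responsive element, a hairpin in the 5′ UTR that binds iron regulatory proteins when iron is scarce. The elements of the 3 members are shown because ferritin and ferroportin transcripts share this control and their RNA is compared below. They were read from GENCODE M21 transcripts (build GRCm38), 5′ to 3′ on the transcript strand, with the hairpin loop in capitals.
Fth1, chr19:9982734-9982758, plus strand: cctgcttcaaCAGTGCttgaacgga
Ftl1, chr7:45459781-45459805, minus strand: cttgcttcaaCAGTGTttgaacgga
Slc40a1, chr1:45925467-45925491, minus strand: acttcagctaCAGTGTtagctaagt
The search asked for C, any 5 bases, CAGTG followed by A, C or T, and 5 bases pairing with the first 5, on the transcript strand only. It found the pattern in 3 of the 10 members and in 23 of 20834 protein-coding genes with a 5′ UTR (0.11%). The values below are of RNA abundance and do not measure translation.

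Several properties of the libraries bear on the values. Normalized counts summed to between 25810749 and 38388663 per library. The targeted gene did not follow its label: C3 had 8008.0, 1457.3, 5495.3 and 1587.2 normalized counts in the libraries labelled C3-/- after glycerol and 819.4, 1139.7, 860.0 and 563.8 in those labelled C3-/- after PBS, against 3728.7, 1711.7, 2782.8 and 4717.5 in WT after glycerol and 334.9, 361.4, 470.5 and 425.0 in WT after PBS. The labels do not name the deleted part of C3, so these gene-level values do not settle the genotype, and C3-/- below means as labelled. The deposited descriptions number 13 libraries from 1 to 13, and 3 glycerol libraries repeat numbers from that run (labelled C3-/- replicates 1 and 3, and WT replicate 4). These are called number series 2, the others number series 1, and what the numbers stand for is not stated. WT glycerol replicate 4 listed 3374 genes at 0, against 190 to 982 in the other 15 libraries. The Y-linked gene Ddx3y reached at least 100 in 11 libraries, including all WT libraries, and was under 100 in 5, all labelled C3-/- (replicates 1 to 3 after PBS and replicates 1 and 2 after glycerol), which had high Xist. In bulk tissue, a change in the number of cells of a type cannot be told apart from a change in RNA per cell. Summed proximal tubule markers were 70000, 108600, 292800 and 107700 in the glycerol libraries labelled C3-/- and 240000 to 320400 in the PBS libraries labelled C3-/-. Among the C3-/- glycerol libraries only replicate 3 (292800) reached the PBS range. In WT the sums were 20900 to 95340 after glycerol and 246400 to 286100 after PBS. The part of these markers in the results below was not tested. Summed erythroid markers were 17570 to 20390 after glycerol and 5995 to 11490 after PBS in C3-/- (3 of 6 tested called higher), and 13160 to 26510 after glycerol and 15470 to 24680 after PBS in WT (0 called higher). The 2 adipocyte markers present of 6 summed to 3511 and 7221 in the C3-/- libraries of number series 2 and 3122 in the WT one, against 1349 to 2609 in all other libraries. The part of either in the results was not tested.

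After glycerol, transcripts of Slc48a1 (heme transport), Hmox1 (heme cleavage), Blvrb (biliverdin reduction), Fth1 and Ftl1 (iron storage) were higher in both labelled genotypes. Hmox2 and Blvra, which also act in heme cleavage and biliverdin reduction, were not called in either over all libraries. In C3-/-, 5 of the 10 genes rose (Hmox1, Blvrb, Fth1, Ftl1 and Slc48a1), 0 fell and 5 did not pass, where 5.63% of all tested genes were called in either direction and 3.68% were called higher. In WT, 6 rose (these 5 and Hp), 0 fell and 4 did not pass, where 25.9% of genes were called and 12.5% called higher. A call is an adjusted p below 0.05 in limma on log2(normalized count + 1), adjusted by Benjamini-Hochberg over all tested genes. The median log2 change of the 10 genes was 0.39 in C3-/-, against -0.06 for all genes, and 1.1 in WT, against -0.11 for all genes. In the authors' deposited tables, members numbering 5 in C3-/- and 6 in WT were higher after glycerol, at an adjusted p below 0.05. Those tables come from the same libraries, and the share of all genes called in them is not given here.

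**Figure D1:**
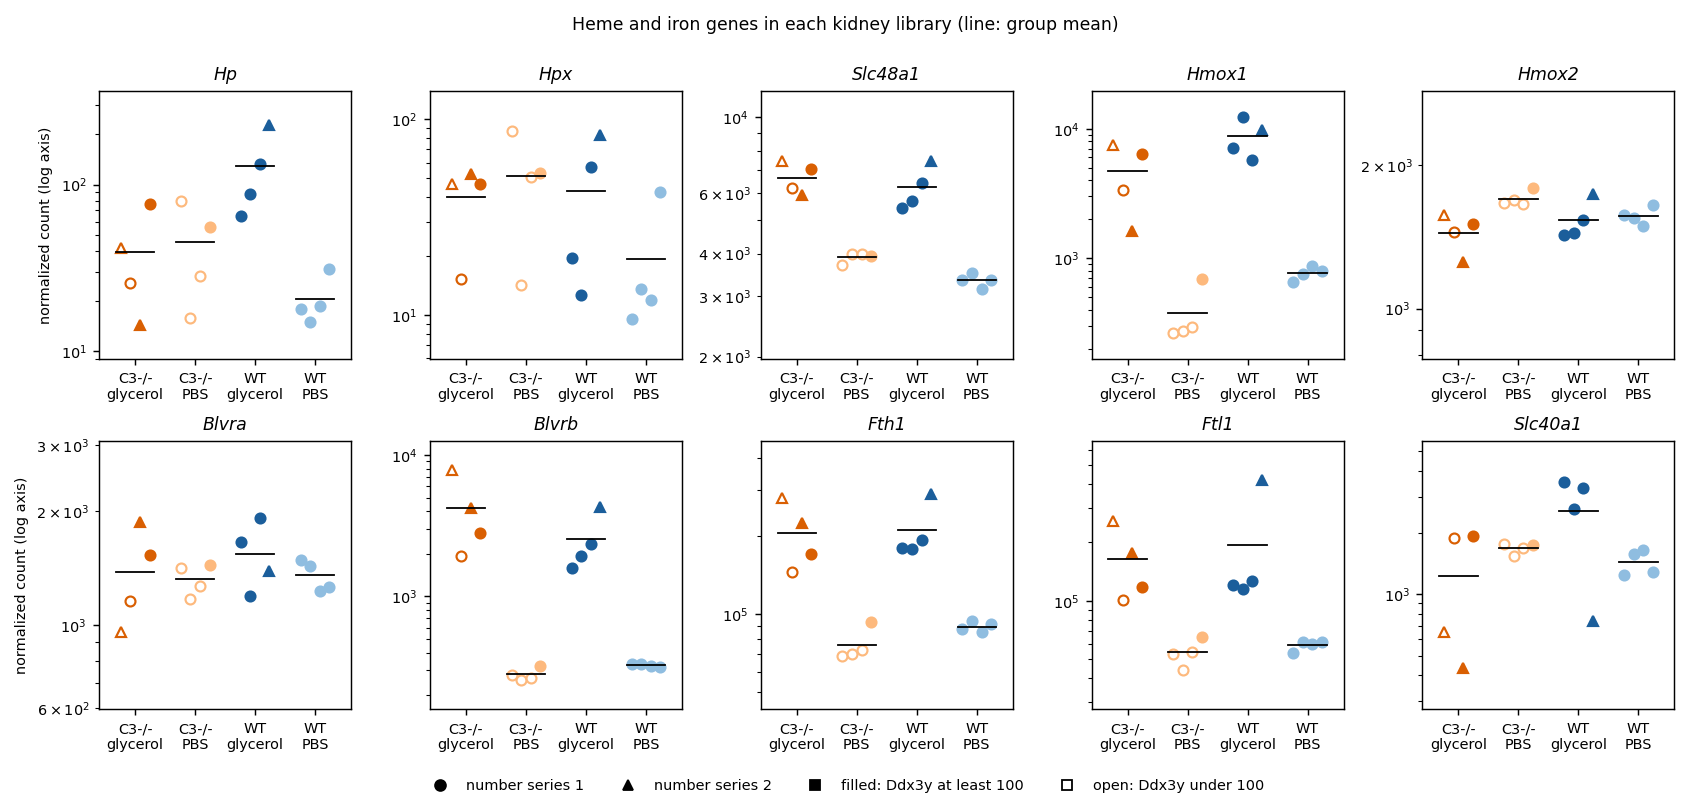
Normalized count of each of the 10 genes on a log axis, 1 symbol per library, in the 4 groups as labelled, with the group mean as a line; triangles are number series 2 and open symbols are libraries with Ddx3y under 100. The glycerol libraries of Hmox1, Blvrb, Fth1, Ftl1 and Slc48a1 lie above the PBS libraries in each labelled genotype, and the triangles of Slc40a1 lie at 436.0 to 737.5.

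Hmox1, the inducible heme oxygenase (chromosome 8, 75093621-75100589, plus strand, GRCm38), had 7553.8, 3366.5, 1621.8 and 6418.2 normalized counts in kidneys labelled C3-/- after glycerol and 264.2, 275.2, 291.3 and 688.3 after PBS. In WT it had 7160.4, 12322.0, 5780.2 and 9751.9 after glycerol and 651.0, 753.0, 869.4 and 793.3 after PBS. The groups did not overlap in either labelled genotype, as held, in the direction of a rise, for 9.53% of all tested genes in C3-/- and 18.2% in WT. The log2 fold change was 3.53 ± 0.43 in C3-/- (SE; 11.6-fold, limma adjusted p = 0.000269) and 3.46 ± 0.43 in WT (limma adjusted p = 6.27e-05). The libraries differed widely among themselves after glycerol in C3-/-, with a coefficient of variation of 57.6%, compared with 33.0% in WT.

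Hmox2, the constitutive heme oxygenase (chromosome 16, 4726361-4766742, plus strand), overlaps Cdip1 on the other strand, and no label or file header says whether counting used strand. It had 1571.1, 1445.9, 1251.7 and 1501.7 after glycerol in C3-/- and 1665.7, 1689.3, 1656.2 and 1792.8 after PBS. The WT libraries held 1428.4, 1442.4, 1534.3 and 1741.4 after glycerol and 1572.7, 1553.1, 1490.0 and 1647.5 after PBS. The C3-/- glycerol libraries all lay below the C3-/- PBS libraries, as did those of 9.71% of all tested genes, while the WT groups overlapped. The log2 change was -0.24 ± 0.12 in C3-/- (limma adjusted p = 0.219), and -0.03 ± 0.12 in WT (limma adjusted p = 0.87). With number series 1 alone, the C3-/- difference passed, at -0.21 (limma adjusted p = 0.0437), where 23.3% of genes were called.

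Within each library the log2 ratio of Hmox1 to Hmox2 moved with treatment, without depending on library scaling. It averaged 1.49 ± 0.87 after glycerol and -2.29 ± 0.61 after PBS in C3-/- (SD, n = 4 each), a difference of 3.77 (exact two-sided permutation p = 0.0286, 0.0571 adjusted over 12 ratio tests). In WT it averaged 2.45 ± 0.49 after glycerol and -1.04 ± 0.2 after PBS, a difference of 3.49 with the same exact permutation p = 0.0286, and 0.0571 adjusted. A comparison of 4 with 4 allows no smaller p than 0.0286. With that floor and 12 tests an adjusted value below 0.05 was hard to reach, and the smallest was 0.0571, so none passed. Between genotypes after PBS this ratio differed by -1.25 (C3-/- minus WT) and that of Blvrb to Blvra by -0.19. Both had the same exact permutation p = 0.0286, and 0.0571 adjusted.

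**Figure D2:**
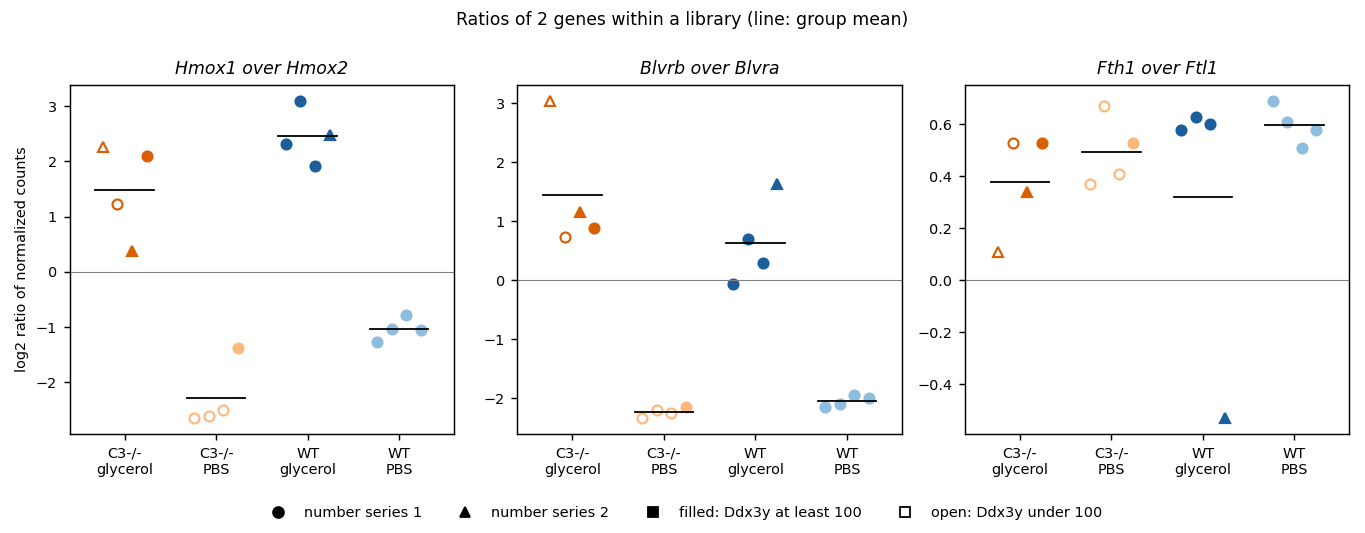
Log2 ratio of the normalized counts of 2 genes within each library, for Hmox1 over Hmox2, Blvrb over Blvra, and Fth1 over Ftl1, with group means as lines and symbols as in the plot of values by library. The first 2 ratios separate glycerol from PBS in each labelled genotype, and Fth1 over Ftl1 lies between 0.11 and 0.69 except in WT glycerol replicate 4, at -0.53.

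Blvrb, biliverdin reductase B (chromosome 7, 27447978-27466144, plus strand), is also known as a flavin reductase. It had 7869.7, 1923.4, 4185.9 and 2810.9 normalized counts after glycerol and 280.3, 254.7, 266.6 and 325.0 after PBS in C3-/-. WT kidneys had 1586.0, 1940.6, 2345.0 and 4301.6 after glycerol and 334.8, 331.7, 321.1 and 316.1 after PBS. No glycerol library reached down to any PBS library. The log2 change was 3.7 ± 0.36 in C3-/- (limma adjusted p = 4.15e-05) and 2.85 ± 0.36 in WT (7.23-fold, limma adjusted p = 6.99e-05). In both labelled genotypes the number series 2 libraries held the highest values, at 4185.9 to 7869.7 in C3-/- and 4301.6 in WT. Within number series 1 the C3-/- change was 3.05 (limma adjusted p = 3.7e-07).

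Blvra, biliverdin reductase A (chromosome 2, 127070665-127097084, plus strand), which reduces the main biliverdin isomer of adult heme breakdown, showed no such rise. It had 954.7, 1155.6, 1870.1 and 1532.0 after glycerol and 1418.7, 1170.3, 1270.0 and 1443.2 after PBS in C3-/-, and 1663.4, 1193.3, 1923.7 and 1388.2 after glycerol and 1484.1, 1428.4, 1231.7 and 1262.4 after PBS in WT. All pairs of groups overlapped. The log2 change was 0.01 ± 0.2 in C3-/- (limma adjusted p = 0.97) and 0.17 ± 0.2 in WT (limma adjusted p = 0.556). The log2 ratio of Blvrb to Blvra averaged 1.45 ± 1.07 after glycerol and -2.23 ± 0.08 after PBS in C3-/-, and 0.64 ± 0.73 after glycerol and -2.04 ± 0.1 after PBS in WT (SD, n = 4 each). The differences were 3.69 and 2.68, each with an exact permutation p = 0.0286, and 0.0571 adjusted over the 12 ratio tests.

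The ferritin transcripts were abundant. Fth1, the heavy subunit with ferroxidase activity (chromosome 19, 9980598-9985098, plus strand), had 278879.8, 145622.2, 223448.9 and 170594.7 normalized counts after glycerol and 68750.0, 70217.7, 72538.1 and 93628.7 after PBS in C3-/-. In WT, the values were 179579.7, 177596.0, 192103.3 and 290452.5 after glycerol and 87436.9, 93737.6, 85325.2 and 91662.1 after PBS. The groups did not overlap, and the log2 change was 1.39 ± 0.27 in C3-/- (2.62-fold, limma adjusted p = 0.0072) and 1.2 ± 0.27 in WT (2.3-fold, limma adjusted p = 0.00471). With only the 2 groups in the fit the C3-/- call was lost (limma adjusted p = 0.0716), and with quantile normalization the WT call was lost, at 0.77 (adjusted p = 0.0628).

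Ftl1, the light subunit that supports the iron core (chromosome 7, 45457944-45459884, minus strand), had 258609.8, 100998.1, 177123.8 and 117880.1 after glycerol and 53322.2, 44118.0, 54637.7 and 65034.0 after PBS in C3-/-. WT libraries had 119987.9, 114665.3, 126431.0 and 418028.2 after glycerol and 54041.7, 61356.2, 60039.6 and 61374.4 after PBS. WT glycerol replicate 4 stood far above the other WT glycerol libraries, and the groups did not overlap. The log2 change was 1.51 ± 0.4 in C3-/- (2.84-fold, limma adjusted p = 0.0382) and 1.47 ± 0.4 in WT (2.78-fold, limma adjusted p = 0.0137). The C3-/- call was lost in 12 alternatives: the replicate block, only the 2 groups in the fit, and the removal of C3-/- glycerol replicate 1 (log2 change 1.25, adjusted p = 0.124) or 3 (1.44, adjusted p = 0.0628) or of any 1 PBS library of either genotype (adjusted p of 0.0566 to 0.115). Its C3-/- change was 1.02 within number series 1 (limma adjusted p = 0.0011) and 0.83 with number series and the Y-linked transcript as terms (adjusted p = 0.0217). The near-identical Ftl1-ps1, which can share reads with Ftl1, averaged 4767 after glycerol and 2737 after PBS in C3-/-, and 5848 and 2681 in WT, so the split of reads between them is uncertain; Ftl1 also overlaps Gm10252 on the other strand.

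Together Fth1 and Ftl1 made up 1.155% ± 0.239 of summed normalized counts after glycerol and 0.432% ± 0.032 after PBS in C3-/- (SD, n = 4 each). In WT the share was 1.281% ± 0.377 after glycerol and 0.469% ± 0.018 after PBS. The log2 ratio of Fth1 to Ftl1 averaged 0.38 ± 0.2 after glycerol and 0.49 ± 0.14 after PBS in C3-/-, a difference of -0.12 (exact permutation p = 0.4). In WT it averaged 0.32 ± 0.57 after glycerol and 0.6 ± 0.08 after PBS, a difference of -0.28 (exact permutation p = 0.6), and without WT glycerol replicate 4 the difference was 0.01.

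Slc48a1, the transporter that moves heme out of lysosomes (chromosome 15, 97778520-97792692, plus strand), had 7482.1, 6239.6, 5928.0 and 7047.0 after glycerol and 3715.9, 3997.3, 3989.3 and 3931.8 after PBS in C3-/-. In WT kidneys there were 5440.2, 5703.9, 6444.0 and 7465.6 after glycerol and 3345.9, 3519.5, 3144.1 and 3345.2 after PBS. The groups were well separated, and after glycerol its coefficient of variation, 10.7% in C3-/- and 14.5% in WT, was the smallest of the 6 genes that rose in WT. The log2 change was 0.77 ± 0.13 in C3-/- (1.7-fold, limma adjusted p = 0.00362, and 0.052 with only the 2 groups in the fit) and 0.9 ± 0.13 in WT (1.86-fold, limma adjusted p = 0.00027). Its end overlaps Hdac7 on the other strand.

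Slc40a1, ferroportin, the only known exporter of iron from mammalian cells (chromosome 1, 45908068-45926523, minus strand), split by number series. After glycerol it had 650.5, 1874.2, 436.0 and 1918.0 in C3-/-, against 1760.8, 1528.8, 1689.7 and 1734.9 after PBS. The WT values were 3519.9, 2607.5, 3324.3 and 737.5 after glycerol, against 1233.4, 1562.2, 1636.6 and 1281.4 after PBS. The 3 libraries of number series 2 held 436.0 to 737.5, below every PBS library, whereas those of series 1 held 1874.2 to 1918.0 in C3-/- and 2607.5 to 3519.9 in WT. Over all libraries no call was made, with a log2 change of -0.74 ± 0.49 in C3-/- (limma adjusted p = 0.338) and 0.62 ± 0.49 in WT (limma adjusted p = 0.377).

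Within number series 1 the Slc40a1 change was 0.18 in C3-/- (limma adjusted p = 0.381) and 1.14 in WT (limma adjusted p = 8.82e-06). That fit held 2 C3-/- and 3 WT glycerol libraries, and 23.3% of genes were called in C3-/- and 56.2% in WT. With number series and the Y-linked transcript as terms, the changes were 0.26 in C3-/- (adjusted p = 0.275) and 1.1 in WT (adjusted p = 2.71e-05), where 18.8% and 49.3% of genes were called. All PBS libraries were in series 1, so series 2 and glycerol cannot be fully told apart. In contrast to Slc40a1, Ftl1 held 177123.8 to 418028.2 in the series 2 libraries and 100998.1 to 126431.0 in the glycerol libraries of series 1.

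**Figure D3:**
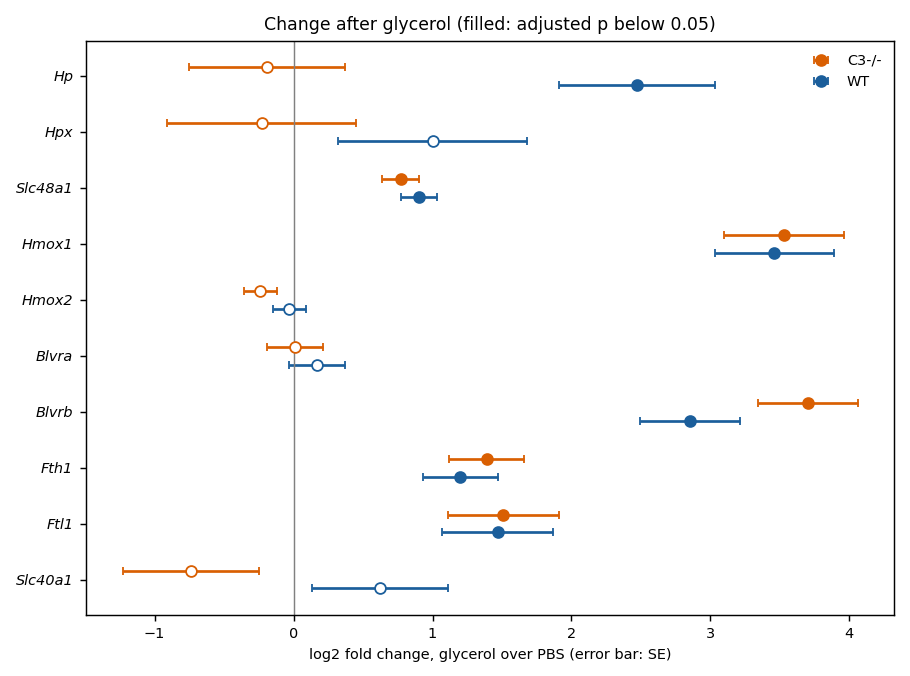
Log2 fold change of glycerol over PBS for each of the 10 genes, with its standard error, in libraries labelled C3-/- and in WT; filled points passed at an adjusted p below 0.05. Hmox1 and Blvrb lie furthest to the right in both, and Hp lies at -0.19 in C3-/- and at 2.47, past the threshold, in WT.

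The scavengers, which are made mainly by liver, had low values in kidney. Hp, haptoglobin (chromosome 8, 109575128-109579172, minus strand), had 41.5, 25.5, 14.3 and 76.7 normalized counts after glycerol in C3-/- and 80.1, 15.9, 28.2 and 56.0 after PBS, so that those groups overlapped. WT libraries held 64.8, 88.0, 133.5 and 229.0 after glycerol and 17.8, 15.0, 18.7 and 31.1 after PBS, with no overlap. The log2 change was -0.19 ± 0.56 in C3-/- (limma adjusted p = 0.834) and 2.47 ± 0.56 in WT (5.55-fold, limma adjusted p = 0.00494). The difference between these 2 changes was -2.66 ± 0.79 and did not pass (limma adjusted p = 0.179).

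Hp is also made by neutrophils and their precursors, and the 4 of 9 listed neutrophil markers present in the matrix summed to 29.59 to 121.7 after glycerol and 12.01 to 39.43 after PBS in C3-/-. In WT they summed to 374.1 to 830 after glycerol and 96.55 to 160.7 after PBS. Of these 4 markers 2 were called higher after glycerol in WT and 0 in C3-/-. After PBS, Hp reached 80.1 in C3-/- libraries and 31.1 in WT libraries, although every C3-/- PBS sum lay below every WT PBS sum. The liver gene Alb was 373.3, 221.0, 229.0 and 911.9 after glycerol and 1111.3, 134.6, 526.0 and 779.2 after PBS in C3-/-. In WT, Alb was 175.0, 91.9, 397.7 and 202.8 after glycerol and 192.8, 165.5, 164.7 and 893.3 after PBS. Hp and Alb were highest in the same library in both PBS groups and in C3-/- glycerol, but not in WT glycerol. The part of neutrophils or of liver transcripts in the Hp values was not tested.

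Hpx, hemopexin (chromosome 7, 105591613-105600137, minus strand), had 46.7, 15.2, 52.4 and 46.6 after glycerol and 87.4, 14.2, 50.4 and 52.8 after PBS in C3-/-. In WT it had 19.5, 12.6, 57.2 and 83.4 after glycerol and 9.5, 13.5, 11.9 and 42.6 after PBS. Groups overlapped throughout, with log2 changes of -0.23 ± 0.68 in C3-/- (limma adjusted p = 0.836) and 1.0 ± 0.68 in WT (limma adjusted p = 0.293). Ahsg, which encodes a plasma protein made in liver, was 37.2, 7.5, 5.9 and 74.5 in glycerol libraries and 90.9, 6.9, 56.2 and 102.0 in PBS libraries labelled C3-/-, and 4.4, 3.2, 42.4 and 14.3 in glycerol and 2.6, 1.6, 4.1 and 61.1 in PBS libraries of WT. After PBS the 4 libraries lowest in Hpx (9.5 to 14.2) were the 4 lowest in Ahsg (1.6 to 6.9), but after glycerol C3-/- replicate 3 had the highest Hpx of its group (52.4) with the lowest Ahsg (5.9). All 12 listed hepatocyte markers were in the matrix, and their sum was 6006 to 7849 after glycerol and 2509 to 6453 after PBS in C3-/-, and 5440 to 8383 and 9476 to 10980 in WT. The sums were highest in WT PBS libraries, where mean Hpx was lowest (19.37). Alb, which is on this list, was 164.7 to 893.3 in WT PBS libraries and 134.6 to 1111.3 in C3-/- PBS libraries, so the sum does not stand for each marker. Hpx and Alb were highest in the same library in both PBS groups, but not in either glycerol group. The part of liver transcripts in Hpx was not tested.

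**Figure D4:**
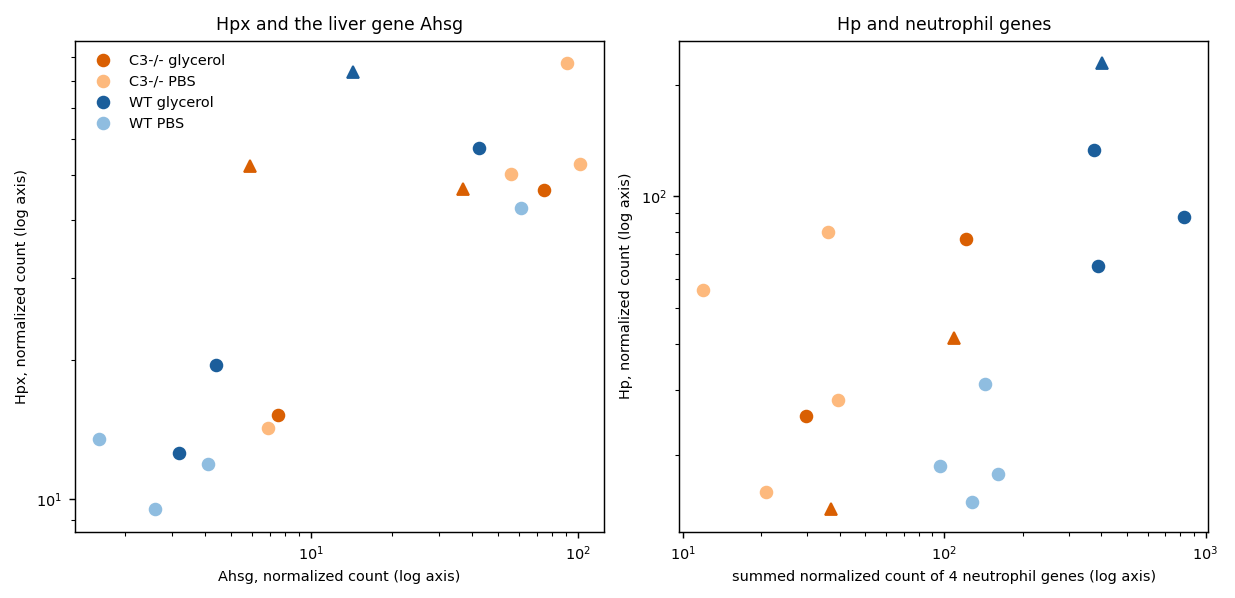
Left, Hpx against Ahsg, and right, Hp against the summed normalized count of 4 neutrophil genes, on log axes, 1 symbol per library; colours mark the labelled groups and triangles number series 2. The WT glycerol libraries hold the highest neutrophil sums, 374.1 to 830, and Hp of 64.8 to 229.0.

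Glycerol kidneys of the 2 labelled genotypes were then compared directly, for levels after injury and not for the response to it. None of the 10 genes passed in limma, where 11.2% of all tested genes were called, and 3 had an unadjusted p below 0.05. These were Hp, at a log2 difference of -1.77 ± 0.56 (C3-/- minus WT; adjusted p = 0.0557), Hmox1 at -1.06 ± 0.43 (adjusted p = 0.133) and Slc40a1 at -1.12 ± 0.49 (adjusted p = 0.176). Hp was 0.294-fold. In the authors' deposited table Hp was lower in C3-/- as well, at a log2 difference of -1.65 (the authors' adjusted p = 0.0237). Hp was the 1 member called there, and the share of all genes called there is not given here. Blvrb was 0.63 ± 0.36 higher in value without passing (limma adjusted p = 0.303), and Fth1, Ftl1 and Slc48a1 differed by -0.05, -0.1 and 0.1. Within number series 1 (2 C3-/- and 3 WT glycerol libraries), Slc40a1 was lower in C3-/-, at -0.72 (limma adjusted p = 0.00304), where 30.4% of genes were called. With number series and the Y-linked transcript as terms, the Slc40a1 difference was -0.69 (limma adjusted p = 0.00508), where 33.6% were called. Hp within number series 1 was -1.02 (adjusted p = 0.233).

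After PBS, again none of the 10 passed in limma, where 2.23% of all tested genes were called, and 1 had an unadjusted p below 0.05. That gene was Hmox1, at a log2 difference of -1.13 ± 0.43 (adjusted p = 0.267). It had 264.2, 275.2 and 291.3 in the 3 libraries labelled C3-/- with Ddx3y under 100 and 688.3 in the remaining C3-/- library, against 651.0 to 869.4 in WT, where all libraries had Ddx3y. With only these 2 groups in the fit Hmox1 passed (adjusted p = 0.0163), as it did within number series 1 (adjusted p = 0.028), where 19.5% of genes were called. The share of all genes called with only these 2 groups is not given here. Across the alternatives the number of genes called after PBS rose as high as 4472. Adding the Y-linked transcript as a term to the fit of all 4 groups moved the Hmox1 difference to -0.99 (adjusted p = 0.916). With Ddx3y in all 4 WT libraries and in 1 of 4 C3-/- libraries, genotype and this Y-linked difference are largely confounded after PBS. Slc48a1 was 3715.9 to 3997.3 in C3-/- and 3144.1 to 3519.5 in WT, without overlap, at 0.23 ± 0.13 (adjusted p = 0.681, and 0.0134 with only the 2 groups in the fit). Hmox2 also did not overlap, at 0.12 ± 0.12 (adjusted p = 0.995). Across all tested genes, 13.9% lay without overlap and higher in this comparison.

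The difference between the 2 glycerol responses was tested as the interaction of genotype and glycerol. None of the 10 passed in limma, where 0.438% of all tested genes were called, and 1 (Hp) had an unadjusted p below 0.05. For the genes that rose in both, the differences were 0.07 ± 0.6 for Hmox1, 0.85 ± 0.5 for Blvrb, 0.19 ± 0.38 for Fth1, 0.03 ± 0.56 for Ftl1 and -0.13 ± 0.19 for Slc48a1. The Hmox1 value changes sign with total scaling (-0.04), and the Ftl1 value with quantile normalization (-0.05) and total scaling (-0.08). Slc40a1 differed by -1.36 ± 0.7 (limma adjusted p = 0.554), and within number series 1 by -0.96 (limma adjusted p = 0.00828), where 10.4% of genes were called. The fit of series 1 held only 2 C3-/- and 3 WT glycerol libraries. With number series and the Y-linked transcript as terms, the Slc40a1 difference was -0.84 (limma adjusted p = 0.0208), where 8.76% were called.

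Further genes of heme and iron handling were taken in 5 lists, 47 tested genes in all. After glycerol 4 of the 47 were called in C3-/- (8.51%, against 5.63% of all tested genes) and 10 in WT (21.3%, against 25.9%). Of 16 tested iron uptake and transport genes, 1 rose after glycerol in C3-/-, and 3 rose and 2 fell in WT. Lcn2, a carrier of iron-binding siderophores and a known kidney injury marker, changed by 4.82 ± 0.65 on the log2 scale in C3-/- (limma adjusted p = 0.000608) and 7.66 ± 0.65 in WT (adjusted p = 3.35e-06). In WT the ferroxidase gene Cp rose by 2.15 and the mitochondrial iron importer Slc25a37 by 0.47, while the ferroxidase gene Heph fell by 1.38 and the metal importer Slc39a8 fell by 1.39. The median change over the list was -0.19 in C3-/- and 0.11 in WT, against -0.06 and -0.11 over all genes. Between glycerol kidneys 8 of the 47 were called, where 11.2% of all tested genes were, and of the iron uptake list Lcn2 (-2.79), Steap2, a metalloreductase (-1.46), and Slc25a37 (-0.76) were lower in C3-/-.

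Of 9 tested genes for iron regulation and ferritin turnover, 1 rose in C3-/- (Pcbp1, an iron chaperone for ferritin, 0.6) and 1 fell in WT (Aco1, which encodes iron regulatory protein 1, by 0.7). Fbxl5, a subunit of the ligase that degrades iron regulatory proteins, was lower in C3-/- than in WT after glycerol, at -0.59 (limma adjusted p = 0.00999). Of 9 genes for heme transport and scavenger receptors, 1 fell in C3-/- and 2 in WT. Slc46a1, a folate carrier that also transports heme, changed by -0.93 in C3-/- and -1.36 in WT, and Flvcr2 by -2.75 in WT. Between glycerol kidneys 2 of these genes were higher and 1 was lower in C3-/-: Flvcr2 at 2.18 (limma adjusted p = 0.00874), the heme-binding Pgrmc1 at 0.57, and Lrp1, the receptor for heme-hemopexin complexes, at -1.32 (adjusted p = 0.0249). Of 7 genes for transcription factors of Hmox1 and their regulators, 1 rose in each labelled genotype: Maff, a small Maf protein, by 2.71 in C3-/- and 3.72 in WT, and after glycerol it was lower in C3-/- than in WT, at -1.54 (limma adjusted p = 0.0104). Of 6 genes for bilirubin conjugation and export, 0 passed in C3-/- and 1 fell in WT, the organic anion transporter gene Slco2b1 (-1.1). After PBS and for the interaction no gene of the 5 lists passed in limma, and 6 had an unadjusted p below 0.05 in each. Within number series 1 more list genes were called, as were more of all genes. Of the 47, 19 were called after glycerol in C3-/-, where 23.3% of all genes were, and 29 in WT, where 56.2% were. Between glycerol kidneys 19 were called (30.4% of all genes), after PBS 13 (19.5%) and for the interaction 4 (10.4%).

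**Figure D5:**
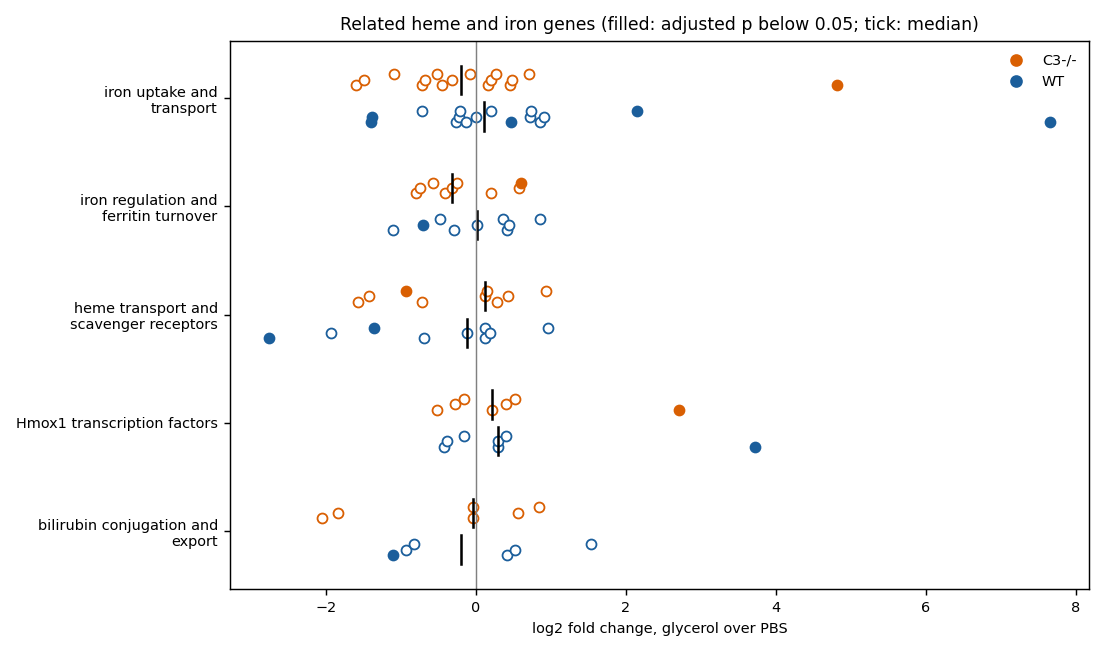
Log2 fold change of glycerol over PBS for each tested gene of the 5 lists, in libraries labelled C3-/- and in WT; filled points passed at an adjusted p below 0.05 and ticks are list medians. Lcn2 (4.82 in C3-/- and 7.66 in WT) and Maff (2.71 and 3.72) lie far to the right. Furthest to the left are Abcc3 in C3-/- (-2.05, not called) and Flvcr2 in WT (-2.75, called).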

How the data were processed

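Kidney RNA was sequenced in 16 libraries. Per the submitters' processing notes, reads were aligned with STAR 2.7.1 to GRCm38 and processed with DESeq2 in R 3.6.1. The deposited matrix holds the authors' normalized signal per gene (gene counts divided by DESeq2 factors). The authors' deposited tables also give log2 fold changes, p-values and a test score (the Wald statistic, not used here) for 3 comparisons. Whole reads could not be recovered from the matrix, so no count model was fitted and depth is known only roughly, in relative terms. The best-fitting step in low values was 0.426 to 1.202 in 15 libraries and 4.24 in WT glycerol replicate 4. The step fitted 9.38% to 45.91% of low values per library, and 20.49% in WT glycerol replicate 4, whose low values appear coarser.

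Genes with at least 10 in at least 4 libraries were tested with limma 3.58.1 (R 4.3.3, mean-variance trend) on log2(value + 1), in 1 fit with a coefficient per group and 5 contrasts, adjusted by Benjamini-Hochberg over 18035 genes. Fold changes are on that scale and understate changes of low genes. Within-library ratios were tested by exact two-sided permutation. The script was tested on simulated data. The 10 genes are all named in each main comparison, and from each related list up to 4 called genes with the smallest p could be named. The genes and lists were chosen with earlier results of these data known. Marker genes absent from the matrix (all 6 of the skeletal muscle list, for instance) were not analysed here. Alternatives covered pseudocount, filter, scaling, trend, replicate block, number series, the Y-linked transcript, the groups in the fit and each library left out.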

Additional observations from a re-analysis of the deposited data

Results flagged for a closer look

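In 4 of the 40 groups of 4 libraries examined (10 genes in 4 groups), 1 library stood apart from the other 3, its gap to the nearest exceeding Dixon's critical share of the group's range. Chance flags about 1 in 20 groups. Hmox1 in replicate 4 of the PBS libraries labelled C3-/- was 688.3, where the others held 264.2 to 291.3; this library alone of its group had Ddx3y at or above 100. Fth1 and Ftl1 in WT glycerol replicate 4 were 290452.5 and 418028.2, where the others held at most 192103.3 and 126431.0; this library is in number series 2 and listed 3374 genes at 0. Hpx in replicate 2 of the glycerol libraries labelled C3-/- was 15.2, where the others held 46.6 to 52.4. Replicate 2 of the other groups held similar Hpx: 14.2 in C3-/- PBS, 12.6 in WT glycerol and 13.5 in WT PBS. It was the lowest of its group except in WT PBS, where replicate 1 held 9.5.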

How the results depend on the processing

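Hmox1 and Blvrb in C3-/-, and Hmox1, Blvrb, Ftl1, Slc48a1 and Hp in WT, kept direction and call in every alternative run. The number of the 10 genes called in C3-/- after glycerol was 2 with only the 2 groups in the fit, 4 with the block, 6 in number series 1 alone (Hmox2 lower) and 4 to 5 with 1 library left out. In WT it was 5 with quantile normalization, 7 in series 1 alone or with series and Y-linked transcript as terms (Slc40a1), and 6 with any 1 library left out. Between glycerol kidneys it was 1 with a pseudocount of 8, quantile normalization, the replicate block, number series 1 alone, or series and Y-linked transcript as terms, and 0 to 1 with 1 library left out. The gene was Hp with the pseudocount (adjusted p = 0.0447), quantile normalization (0.0497), the block (0.0282), or without labelled C3-/- glycerol replicate 4 (0.0217) or PBS replicate 2 (0.0457). It was Slc40a1 with series 1 alone, with the terms, or without WT glycerol replicate 4 (-1.64, adjusted p = 0.0124). After PBS it was 2 with series 1 alone or only the 2 groups, and for the interaction 1 with series 1 alone or with the terms. In series 1 alone 23.3% of all genes were called after glycerol in C3-/-, 56.2% in WT and 30.4% between glycerol kidneys. The shares were 19.5% after PBS and 10.4% for the interaction. With the terms they were 18.8%, 49.3% and 33.6% for the glycerol comparisons in the same order, and 8.76% for the interaction. Shares with only 2 groups in the fit are not given here. The cause of the shifts in the counts of the 10 genes was not tested.

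Over all tested genes, deviations of same-numbered replicates showed no common pairing (correlations of -0.692 to 0.385). Between the 2 glycerol groups the correlations were -0.676, 0.385, -0.366 and -0.692 for replicates 1 to 4. In the other comparisons they were -0.107 to 0.189. Glycerol replicates 1, 3 and 4 include a library of number series 2, and its part in these correlations was not tested. Single genes could differ: replicate 2 held Hpx of 15.2 and 14.2 in C3-/- and 12.6 and 13.5 in WT, after glycerol and PBS. With the replicate block the standard error of the C3-/- glycerol change fell from 0.68 to 0.51 for Hpx and from 0.56 to 0.45 for Hp. With that block Ftl1 in C3-/- had a limma adjusted p of 0.0672. The Fth1 to Ftl1 ratio difference in series 1 alone was 0.04 in C3-/-, 0.01 in WT and -0.07 between glycerol kidneys; with 1 library left out it spanned -0.17 to -0.03 in C3-/-, -0.38 to 0.01 in WT and -0.23 to 0.16 between glycerol kidneys. Sign changes among values that were not called were as follows. In C3-/- after glycerol, Blvra was -0.07 with both terms, -0.03 with total scaling and -0.1 with the Y-linked term; Slc40a1 was 0.18 in series 1 and 0.26 with both terms; Hp was 0.22 in series 1. In WT after glycerol, Hmox2 was 0.04 with total scaling. Between glycerol kidneys, Hmox2 was 0.01 in series 1, Blvra 0.06 with both terms and 0.05 with the Y-linked term, and Fth1 0.07 with quantile normalization and 0.02 with the Y-linked term. After PBS, Blvra was 0.32 with both terms or the Y-linked term and 0.05 with total scaling, and Ftl1 was 0.01 with quantile normalization. For the interaction, Hmox1 was -0.04 with total scaling, Fth1 -0.01 with both terms, and Ftl1 -0.05 with quantile normalization, -0.00 in series 1, -0.31 with both terms and -0.08 with total scaling.

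Leaving out 1 library turned the sign of these uncalled values, with these ranges: in C3-/-, Blvra -0.15 to 0.17, Hpx -0.74 to 0.17 and Hp -0.59 to 0.19; in WT, Hmox2 -0.09 to 0.0; between glycerol kidneys, Fth1 -0.21 to 0.12, Ftl1 -0.36 to 0.35 and Hpx -0.31 to 0.56; after PBS, Blvra -0.07 to 0.03; for the interaction, Hmox1 -0.23 to 0.51, Blvra -0.32 to 0.0 and Ftl1 -0.22 to 0.48. Over all genes and the settings other than leaving out a library, the C3-/- count of 1016 ranged from 298 to 4118, the WT count of 4666 from 3915 to 9925, the count of 2025 between glycerol kidneys from 278 to 6068, the PBS count of 402 from 157 to 4472 and the interaction count of 79 from 41 to 1845. With 1 library left out these counts were 491 to 2785, 3429 to 5338, 1361 to 4367, 211 to 614 and 38 to 211, in the same order. Low values, as of Hp and Hpx, are the least precise, above all in WT glycerol replicate 4.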
